A study of Mus musculus with 52 samples.

Results

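The 5 genes described here are G3bp1, its processed pseudogene copy Gm5913, its paralog G3bp2, and Caprin1 and Usp10, whose proteins bind G3BP proteins. They were taken by name, as 5 of the 48526 gene IDs in each of 3 tables, and all 5 were found and passed the filter on low values at every age. At P60 Gm5913 passed it through KO libraries alone. Gm5913 was chosen by its difference between genotypes in the embryonic cortex, so values from that contrast are given for all 5 genes as a description, with no test.

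The data are poly-A RNA-seq of mouse brain, 52 libraries in 14 groups. The study is on the microRNA miR-146a, and its libraries are labelled KO or WT; the labels give no strain, no further allele and no account of how the KO was made. Embryos (E14) gave 5 KO libraries and 4 WT libraries of whole cortex. Mice at postnatal day 30, called P30, gave 4 KO libraries and 4 WT libraries from each of the amygdala, the frontal cortex and the hippocampus. Mice at postnatal day 60, called P60, gave 4 KO libraries and 3 WT libraries from both the amygdala and the frontal cortex, and 2 KO libraries with 3 WT libraries from the hippocampus. The libraries are of whole tissue, so fewer cells of a type and less RNA per cell cannot be told apart. The labels do not say which libraries came from the same animal.

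Stress granules are assemblies of messenger RNA, RNA-binding proteins and stalled initiation complexes that form in the cytoplasm when translation initiation is blocked, typically after phosphorylation of eIF2alpha. G3BP1 and G3BP2 are the RNA-binding proteins that nucleate them. Caprin1 binds the same domain of G3BP as Usp10; Caprin1 favours condensation of granules, and Usp10, a deubiquitinase, opposes it. In neurons, G3BP1 is also found in axonal RNA granules, and Caprin1 is a component of dendritic RNA granules. A processed pseudogene is a reverse-transcribed copy of a messenger RNA inserted elsewhere in the genome.

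Positions are those of the GENCODE M21 annotation of GRCm38. G3bp1 (ENSMUSG00000018583) lies on chromosome 11, from 55469685 to 55504838 on the plus strand, which is 12.1 Mb from Mir146, the gene of miR-146a, on the same chromosome. Gm5913 (ENSMUSG00000081111) is a gene on chromosome 8, from 97427712 to 97429110 on the minus strand. G3bp2 (ENSMUSG00000029405) lies on chromosome 5, from 92052146 to 92083719 on the minus strand, and its last part overlaps the antisense lincRNA Gm26582. Caprin1 (ENSMUSG00000027184) lies on chromosome 2, from 103762941 to 103797649 on the minus strand. Usp10 (ENSMUSG00000031826) lies on chromosome 8, from 119910360 to 119957560 on the plus strand, and is overlapped over nearly its whole length by the annotated gene Gm20388, which was listed at 0 in all 52 libraries.

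As annotated, Gm5913 copies the coding part of G3bp1 and nothing else of its transcript. The bases beside it on chromosome 8 were not examined. The G3bp1 transcript used has 6703 bases, of which 1398 are coding including the stop, and the 1399 bases of Gm5913 aligned to those with 27 substitutions and 1 gap, an identity of 98.0%. The remaining 79.1% of the G3bp1 transcript has no counterpart within the annotated bases of Gm5913. The stretch with the most differences is shown first, because reads from it can be assigned to either gene; capitals mark the 6 differences, and positions 692 to 841 count from the first base of the start codon.
G3bp1: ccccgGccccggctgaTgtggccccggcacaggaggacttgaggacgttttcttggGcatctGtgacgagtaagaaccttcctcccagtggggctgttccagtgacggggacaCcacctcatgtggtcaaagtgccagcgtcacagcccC
Gm5913: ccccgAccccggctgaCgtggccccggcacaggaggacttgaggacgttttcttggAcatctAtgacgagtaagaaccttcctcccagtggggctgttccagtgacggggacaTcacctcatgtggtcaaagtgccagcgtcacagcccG
The second stretch shows the single gap, 1 extra base in Gm5913 (the capital found in its line only); the other 3 capitals are substitutions. It covers positions 1008 to 1126 of the G3bp1 coding sequence.
G3bp1: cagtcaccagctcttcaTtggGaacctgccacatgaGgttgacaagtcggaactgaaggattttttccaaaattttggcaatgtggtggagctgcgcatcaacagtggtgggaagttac
Gm5913: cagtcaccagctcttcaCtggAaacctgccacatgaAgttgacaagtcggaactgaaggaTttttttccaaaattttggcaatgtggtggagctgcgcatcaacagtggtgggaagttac
The insertion shifts the reading frame. The copy begins with ATG and reads for 383 codons before its first in-frame stop, against 465 codons in G3bp1. The longest stretch without any difference was 183 bases. The libraries were read as pairs of 130 bases, per the labels' protocols, and 88 of the 1270 windows of 130 bases along the alignment (6.9%) held no difference at all, so a single read from such a window could not be told apart between the genes.

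The microRNA the study is about is shown with its seed, bases 2 to 8, in capitals (RefSeq, GRCm38.p6).
miR-146a-5p: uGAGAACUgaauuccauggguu
The motifs searched were AGTTCTC, which pairs with the whole seed, and GTTCTCA, which pairs with bases 2 to 7 followed by an A; they overlap where a site has both. Only the sense strand of the 3' untranslated region was searched. Neither was present in the longest annotated 3' untranslated region of G3bp1 (5170 bases), G3bp2 (2635 bases), Caprin1 (3858 bases) or Usp10 (790 bases). Of 20831 genes, 18.3% had at least 1 of the motifs, and among genes with an untranslated region of similar length the share was 54.0% for G3bp1, 34.1% for G3bp2, 45.4% for Caprin1 and 9.9% for Usp10. The absence of these letters says nothing else about regulation by the microRNA.

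Library depth, as whole reads recovered from the deposited values, was 2933026 to 9469214. Mir146 itself cannot check the genotype labels, since its precursor was at 1 read in 1 WT hippocampus library at P30 and at 0 in all others. Values are given in RPM, the authors' normalised reads, which sum to between 945861 and 1039135 in a library. Region labels were checked against summed markers: hippocampal markers reached 2062 or more in all hippocampus libraries and at most 1168 in the other postnatal libraries, and frontal cortex markers reached 835.3 or more in frontal cortex and at most 511.9 elsewhere after birth. Amygdala markers overlapped, at 146.7 or more in the amygdala and up to 247.7 in other postnatal libraries. Sex read from Xist and Y-linked genes was unbalanced at E14, with 2 females and 3 males in KO and 3 females and 1 male in WT, and at P30, with 3 females of 4 in KO and 1 of 4 in WT in each region. At P60 each KO group had as many females as males, and each WT group had 1 female and 2 males. At E14 the KO libraries numbered 4 and 5 stood apart from the other 3: a chi-square per degree of freedom over genes was 12.4 to 17.9 between a library of each set, 3.34 between those numbered 4 and 5, and 4.22 to 6.70 among the other 3. WT library 3 at P30 stood apart from the other libraries in the amygdala and the hippocampus, and values without these libraries are given beside the results for G3bp1 and G3bp2.

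Gm5913 had the largest ratio between genotypes at E14 among the 5 genes. Its 5 KO libraries had 5.78, 4.94, 6.73, 7.51 and 6.30 RPM, against 1.73, 1.65, 1.61 and 1.56 in the 4 WT libraries. The lowest KO library was above the highest WT library by more than 3 units, and the means were 6.25 ± 0.97 in KO and 1.64 ± 0.07 in WT (SD, n = 5 and 4). Of all genes tested at E14, 0.643% had every KO library above every WT library; this contrast chose the gene, so nothing is read from that share. The values rest on 265 reads in KO and 60 in WT, and each WT library held exactly 15.

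G3bp1 at E14 had 177.2, 205.9, 183.4, 153.7 and 146.4 in KO libraries, against 184.1, 213.1, 209.1 and 216.7 in WT libraries. The groups overlapped, with 1 KO library inside the WT range. The means were 173.3 ± 23.9 in KO and 205.8 ± 14.8 in WT, 15.8% lower in KO. The 2 lowest values are those of KO libraries 4 and 5; without them, a setting chosen after the values had been seen, the KO mean was 188.8 ± 15.1 (SD, n = 3), 8.25% below WT, and the log2 difference was -0.12, against -0.25 with all libraries and -0.21 with sex as a covariate. Gm5913 averaged 5.82 ± 0.90 in the same 3 KO libraries. The other 3 genes had closer means: G3bp2 155.2 ± 7.79 in KO and 152.9 ± 5.77 in WT, Caprin1 901.7 ± 47.4 in KO and 914.2 ± 32.6 in WT, and Usp10 121.5 ± 13.9 in KO and 121.1 ± 5.46 in WT. Over KO libraries 1 to 3 alone these KO means were 157.4 ± 10.0 for G3bp2, 929.4 ± 36.2 for Caprin1 and 130.1 ± 7.54 for Usp10. Summed embryonic cortex markers (8 genes, among them Emx1, Pax6, Eomes and Tbr1) were at 2216 to 2682 in KO libraries and 1841 to 2057 in WT libraries, without overlap, and their part in the E14 values was not tested.

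**Figure D1:**
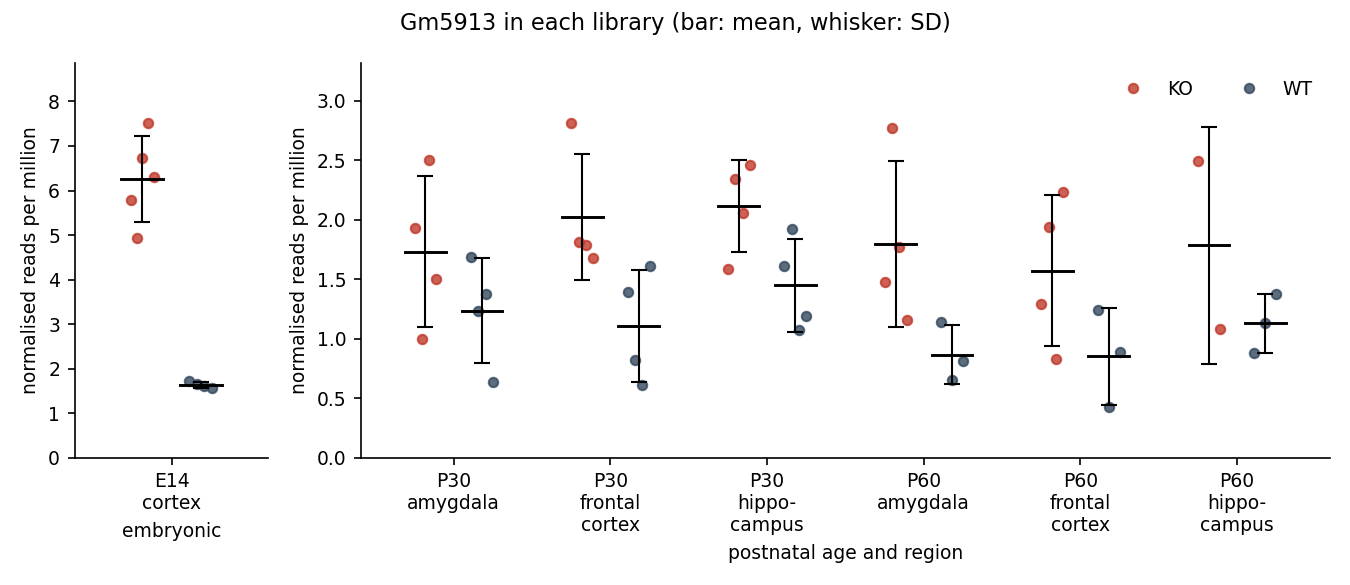
Gm5913 in RPM (normalised reads), 1 point per library, KO left of WT, with mean and SD; the E14 panel has its own axis. The KO libraries stand at 4.94 to 7.51 at E14, all above WT, and the KO means lie above the WT means in all 6 postnatal settings while single libraries overlap in 4 of them.

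After birth Gm5913 was low in both genotypes, at 3 to 23 reads a library, and its KO mean was above its WT mean in all 6 combinations of age and region. In the P30 frontal cortex the KO libraries had 2.81, 1.81, 1.79 and 1.68, against 1.39, 0.82, 0.61 and 1.61 in WT libraries. The groups did not overlap there, as for 1.37% of genes tested in this direction. In the P60 amygdala the KO libraries had 1.48, 2.77, 1.77 and 1.16, against 1.14, 0.65 and 0.81 in WT libraries, again without overlap, as for 2.40% of genes. The other 4 settings overlapped, with means of 1.73 ± 0.64 in KO and 1.24 ± 0.44 in WT in the P30 amygdala, 2.11 ± 0.39 in KO and 1.45 ± 0.39 in WT in the P30 hippocampus, 1.57 ± 0.63 in KO and 0.85 ± 0.41 in WT in the P60 frontal cortex, and 1.79 ± 1.00 in KO and 1.13 ± 0.25 in WT in the P60 hippocampus (SD). None passed the test over all genes (limma-trend, Benjamini-Hochberg adjusted p of 0.602 or more in each setting). No P60 WT library reached the filter value for Gm5913. Its P60 tests and share therefore describe a gene kept by its KO libraries, and nothing is read from them. The log2 differences were 0.28, 0.53 and 0.35 in the P30 amygdala, frontal cortex and hippocampus, and 0.56, 0.46 and 0.35 in the same regions at P60, with 95% intervals from 0.12 to 0.95 in the P30 frontal cortex and from 0.04 to 1.08 in the P60 amygdala. Single libraries moved 3 of these differences by over 1.5 times. In the P30 amygdala it was 0.15 without KO library 3 and 0.14 without WT library 4, in the P60 frontal cortex 0.29 without WT library 2, and in the P60 hippocampus -0.03 without KO library 1 and 0.72 without KO library 2.

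G3bp1 had a lower KO mean in all 6 postnatal settings, and in 5 of them every KO library was below every WT library. In the P30 amygdala the KO libraries had 40.9, 42.6, 42.3 and 40.5, against 46.7, 46.5, 45.8 and 45.0 in WT libraries. In the P30 frontal cortex they had 34.4, 34.7, 33.3 and 39.2, against 43.0, 41.1, 46.8 and 40.3 in WT libraries. In the P30 hippocampus they had 42.9, 37.97, 38.4 and 37.8, against 41.6, 44.0, 46.2 and 45.3 in WT libraries, where KO library 1 lies inside the WT range. The KO means were 9.66%, 17.3% and 11.3% below the WT means in these 3 regions in turn.

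At P60 the amygdala had 47.5, 40.8, 39.8 and 41.0 in KO libraries, against 55.0, 57.1 and 52.0 in WT libraries. The P60 frontal cortex had 35.7, 32.6, 34.5 and 31.6 in KO libraries, against 42.5, 41.4 and 43.2 in WT libraries. The P60 hippocampus had 40.5 and 42.3 in KO libraries, against 47.7, 46.2 and 45.9 in WT libraries. None of these 3 regions overlapped, and the KO means were 22.7%, 20.7% and 11.1% below the WT means. Groups stood apart in this direction for 2.52% of genes tested in the P30 amygdala, 0.985% in the P30 frontal cortex, 2.64% in the P60 amygdala, 2.58% in the P60 frontal cortex and 5.56% in the P60 hippocampus, so separation alone was not rare.

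**Figure D2:**
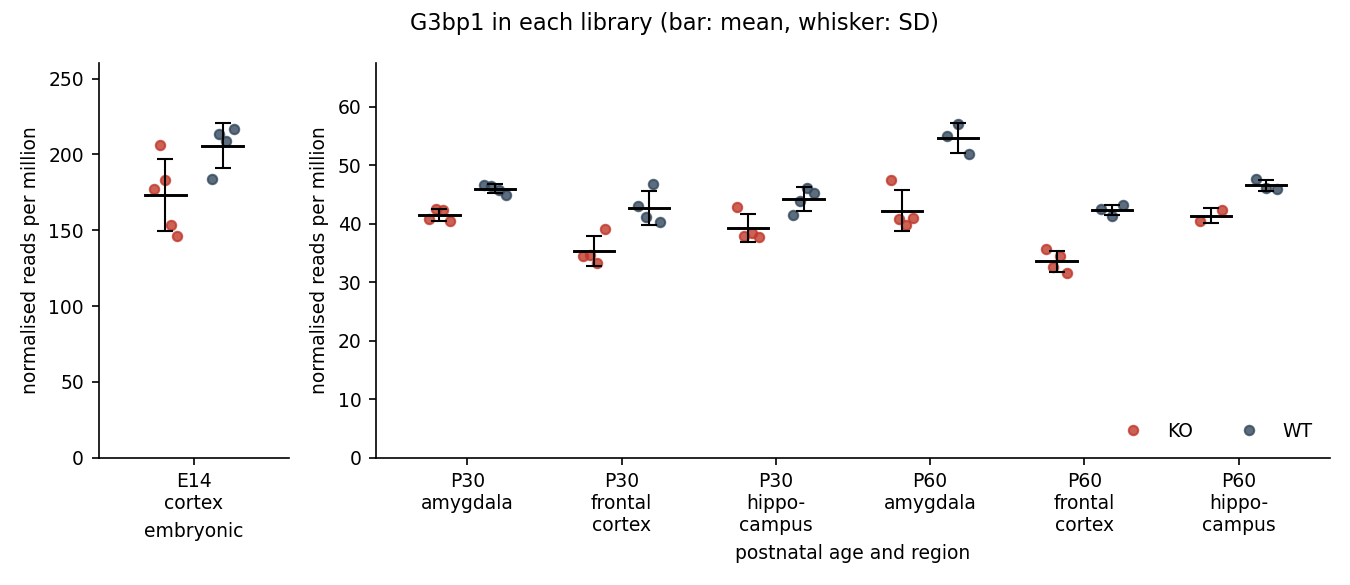
G3bp1 in RPM (normalised reads), 1 point per library, KO left of WT, with mean and SD; the E14 panel has its own axis. KO points lie below WT points in every postnatal setting other than the P30 hippocampus, where KO library 1 at 42.9 reaches into the WT range of 41.6 to 46.2.

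No postnatal setting passed the test for G3bp1 over all genes. The largest log2 difference was in the P60 amygdala, -0.37 ± 0.08 (SE), with an unadjusted p of 0.000118, the sixth smallest of 19239 genes, and an adjusted p of 0.330 (limma-trend). In the P60 frontal cortex it was -0.33 ± 0.08 (adjusted p = 0.658), in the P30 frontal cortex -0.27 ± 0.07 (adjusted p = 1), in the P30 hippocampus -0.17 ± 0.07 (adjusted p = 0.430), in the P30 amygdala -0.14 ± 0.07 (adjusted p = 0.480, limma-trend) and in the P60 hippocampus -0.17 ± 0.09 (adjusted p = 1). The same test called 0.0263%, 0.0158% and 0.0316% of genes in the P30 amygdala, frontal cortex and hippocampus, and 0.0208%, 0.0312% and 0.0208% in the same regions at P60, and no member was among them. In the P30 amygdala, ranges of other cell types' markers were shifted between the groups: summed microglial markers were 128.1 to 161.6 in KO libraries and 158.3 to 213.3 in WT libraries, oligodendrocyte markers 1266 to 2037 in KO and 1581 to 6188 in WT, and neuronal markers 5041 to 5882 in KO and 4542 to 5482 in WT; their part in the values of any member was not tested. Some marker sums did not overlap between the genotypes in the settings above. Blood markers were at 14.53 to 18.78 in KO and 18.81 to 31.15 in WT in the P30 amygdala, and at 15.4 to 17.9 in KO and 11.6 to 15.1 in WT in the P60 hippocampus. Amygdala markers were at 128.2 to 150.5 in KO and 153 to 213.2 in WT in the P30 hippocampus, and endothelial markers at 199.3 to 222.2 in KO and 187.1 to 191.3 in WT in the P60 frontal cortex; the part of these sums too was not tested. At P30, in fits that each left out WT library 3 of 1 region, the G3bp1 difference was -0.22 in the frontal cortex and -0.15 in both other regions. In the P60 amygdala, where same-numbered KO and WT libraries deviated together, the fit with number as a block called 7 genes, against 4, and gave G3bp1 -0.35 (adjusted p = 0.403, limma-trend).

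Taking 1 mean of log2 values over regions per genotype and replicate number, on the log2(value + 1) scale, was a comparison added after the values had been seen. At P30, over 3 regions, the 4 KO means of G3bp1 lay between 5.28 and 5.33 and the 4 WT means between 5.47 and 5.56, a difference of -0.19 ± 0.05 (SE), a change of -12.5%. At P60, over the amygdala and frontal cortex, the 4 KO means lay between 5.21 and 5.40 and the 3 WT means between 5.60 and 5.63, a difference of -0.35 ± 0.07, a change of -21.4%. The groups did not overlap at either age, as for 2.04% of genes at P30 and 2.01% at P60. Neither difference passed (adjusted p = 0.522 and 0.543, limma-trend), in comparisons that called 0.0263% and 0.0312% of genes. Fitting all libraries with genotype and number as a block left the differences as they were and changed the P60 call, with an adjusted p of 0.0803 at P30 and 0.0143 at P60 (limma-trend). That fit called 10 genes at each age. The correlation within blocks was estimated at 0.04 at P30 and 0.09 at P60. Libraries of different regions, which may share an animal, were thus counted almost as separate replicates.

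Gm5913 in the same regional means was higher in KO by 0.39 ± 0.11 at P30 and 0.51 ± 0.18 at P60. Here too the groups did not overlap, as for 3.18% of genes at P30 and 2.32% at P60, and neither difference passed (adjusted p = 0.559 and 1, limma-trend). The P60 share has the limit given above, since KO libraries alone kept Gm5913 in that test. G3bp2, Caprin1 and Usp10 overlapped between genotypes at both ages. Their intervals bound any difference to between -0.03 and 0.21 for G3bp2, -0.03 and 0.14 for Caprin1 and -0.17 and 0.10 for Usp10 at P30, and to between -0.18 and 0.11, -0.17 and 0.07, and -0.10 and 0.19 for these genes at P60.

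**Figure D3:**
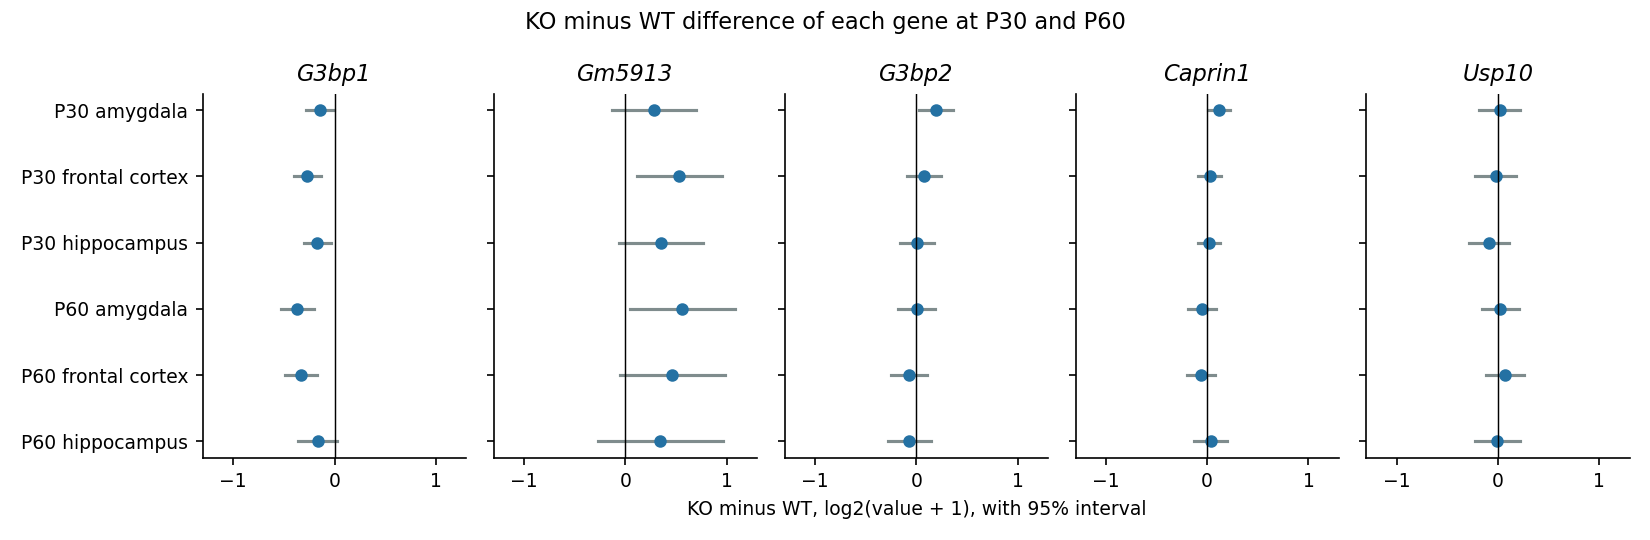
KO minus WT difference of each gene on the log2(value + 1) scale with its 95% interval, in the 6 postnatal settings from P30 amygdala (top) to P60 hippocampus (bottom). Points for G3bp1 lie between -0.37 and -0.14 and those for Gm5913 between 0.28 and 0.56, while the other 3 genes lie on both sides of 0.

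Because the pair is nearly identical, the reads of both genes were also combined. The share of Gm5913 in the reads of the pair does not depend on how a library was scaled. At E14 it was 3.16%, 2.34%, 3.54%, 4.66% and 4.13% in KO libraries, against 0.93%, 0.767%, 0.765% and 0.717% in WT libraries. The Wilson 95% intervals, which cover counting error only, ran from 1.75% to 3.14% for the lowest KO library and from 0.564% to 1.53% for the highest WT library. The E14 contrast chose Gm5913, so nothing is read from the distance between these intervals.

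After birth the share was 3.99% in KO (range 2.30% to 5.59%) and 2.60% in WT (1.41% to 3.49%) in the P30 amygdala, 5.43% ± 1.48 in KO and 2.56% ± 1.15 in WT in the P30 frontal cortex, and 5.15% ± 1.13 in KO and 3.18% ± 0.92 in WT in the P30 hippocampus (SD, n = 4 each). At P60 it was 4.10% ± 1.64 in KO and 1.56% ± 0.45 in WT in the amygdala, 4.51% ± 1.94 in KO and 1.96% ± 0.90 in WT in the frontal cortex, and 4.13% ± 2.33 in KO and 2.37% ± 0.55 in WT in the hippocampus. The KO mean was higher in 6 of 6 settings, and groups did not overlap in the P30 frontal cortex and the P60 amygdala. Values of single genes stood apart in this direction for 1.37% and 2.40% of genes there, and shares of other pairs were not computed. The share also rises where G3bp1 is lower, so it is not separate from the G3bp1 values. At P60 Gm5913 was kept by KO libraries alone, so nothing is read from its P60 shares. Exact two-sided permutation tests gave p = 0.0286 in the P30 frontal cortex, 0.0571 in the P60 amygdala and 0.0857 or more in the other 4, and p = 0.171 or more once adjusted over the 6. Single libraries set the size of the difference in 2 settings: the KO mean exceeded the WT mean by 1.39 percentage points in the P30 amygdala and by 0.859 without KO library 3, and by 1.76 in the P60 hippocampus, where it was 0.112 without KO library 1 and 3.41 without KO library 2. The smallest p these group sizes allow is 0.0286 in 5 settings and 0.1 in the P60 hippocampus.

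**Figure D4:**
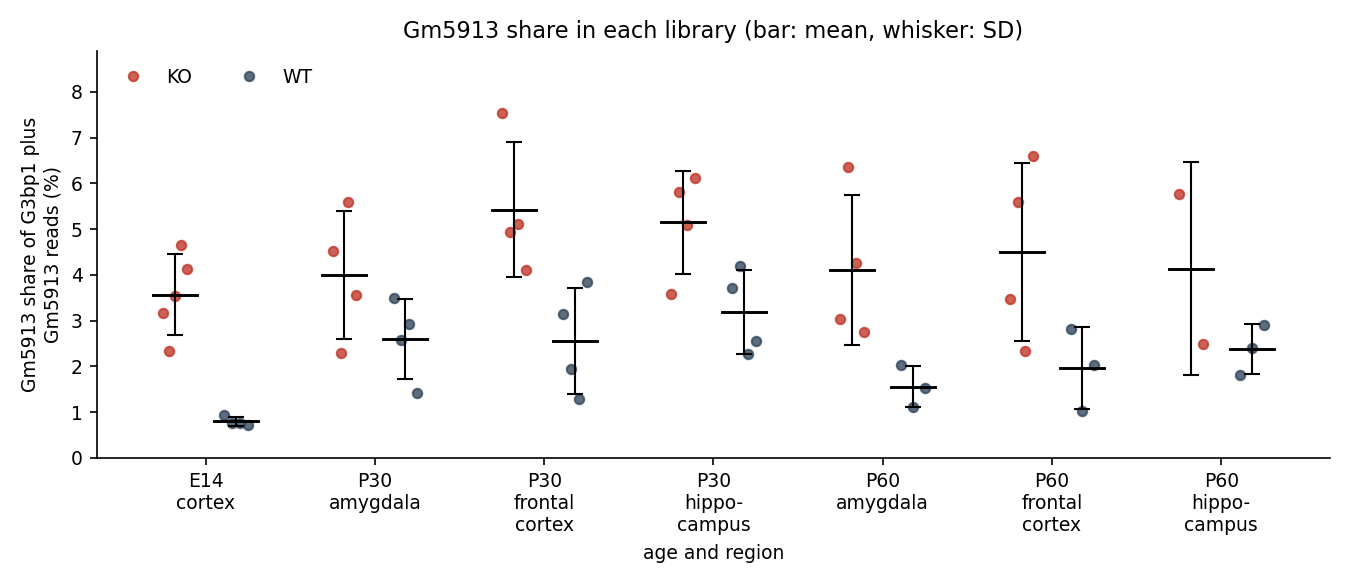
Gm5913 reads as a percent of G3bp1 plus Gm5913 reads, 1 point per library, KO left of WT, with mean and SD. WT libraries stand at 0.717% to 0.93% at E14 and at 1.02% to 4.19% after birth, and KO libraries at 2.34% to 4.66% at E14 and at 2.30% to 7.54% after birth.

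The mean summed value of the pair was lower in KO in every setting, since the difference in G3bp1 was larger than the opposite one in Gm5913. The KO sum minus the WT sum was -3.94, -6.48 and -4.32 in the P30 amygdala, frontal cortex and hippocampus and -11.5, -8.07 and -4.51 in the same regions at P60, in RPM. Groups did not overlap in 5 of the 6, all but the P30 hippocampus. These are the settings where G3bp1 alone did not overlap, as for 0.985% to 5.56% of single genes. G3bp1 makes up most of each sum, so the sums largely repeat its values. The exact two-sided permutation p was 0.0286 in the P30 amygdala, the P30 frontal cortex and the P60 frontal cortex, 0.0571 in the P30 hippocampus and the P60 amygdala, and 0.1 in the P60 hippocampus, and adjusted over the 6 it was between 0.0571 and 0.1. That adjustment covers 6 tests, while the tests of G3bp1 alone were adjusted over all genes. At E14 the sum was 179.6 ± 23.3 in KO and 207.4 ± 14.7 in WT, with overlap.

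G3bp2, the paralog with the same granule function, differed most in the P30 amygdala, with 137.0 ± 6.88 in KO and 120.2 ± 15.2 in WT, a log2 difference of 0.19 ± 0.08 (SE; adjusted p = 0.432, limma-trend). Without WT library 3 there, whose G3bp2 value of 98.3 was the lowest of the group, the difference was 0.10. In the other 5 settings its KO to WT difference lay between -0.07 and 0.07. Its means were 110.6 ± 4.87 in KO and 105.2 ± 9.47 in WT in the P30 frontal cortex, 121.0 ± 4.38 in KO and 120.7 ± 10.8 in WT in the P30 hippocampus, 144.8 ± 17.6 in KO and 143.8 ± 5.30 in WT in the P60 amygdala, 115.7 ± 8.03 in KO and 121.3 ± 2.48 in WT in the P60 frontal cortex, and 130.7 ± 1.43 in KO and 137.5 ± 12.01 in WT in the P60 hippocampus. The libraries were stranded, but it is not stated whether counting used the strand, and reads of G3bp2 and of its antisense neighbour Gm26582, at 0.60 to 4.17 in every library, may be mixed.

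Caprin1 also differed most in the P30 amygdala, with 287.1 ± 14.1 in KO and 264.6 ± 11.0 in WT, a log2 difference of 0.12 ± 0.05 (SE; adjusted p = 0.477, limma-trend). Elsewhere after birth it stood at 248.8 ± 6.49 in KO and 244.7 ± 8.06 in WT in the P30 frontal cortex, 282.0 ± 6.11 in KO and 278.6 ± 9.34 in WT in the P30 hippocampus, 258.1 ± 15.04 in KO and 266.6 ± 7.22 in WT in the P60 amygdala, 226.3 ± 3.69 in KO and 236.0 ± 11.8 in WT in the P60 frontal cortex, and 271.6 ± 14.2 in KO and 265.3 ± 15.3 in WT in the P60 hippocampus. Groups overlapped in all of these settings. Usp10 ranged from 42.6 to 66.9 in postnatal KO libraries and from 40.8 to 62.0 in postnatal WT libraries. Its largest difference was in the P30 hippocampus, 50.1 ± 5.18 in KO and 53.3 ± 6.12 in WT, a log2 difference of -0.09 ± 0.10 (SE; adjusted p = 0.809, limma-trend), and its direction varied among settings.

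Whether the KO effect on a member differed between regions was tested directly. For G3bp1 the largest difference of effects was between the amygdala and hippocampus at P60, -0.20 ± 0.12 (SE; adjusted p = 1.00, limma-trend). No gene was called in any of the 6 such contrasts (0% of 18976 genes at P30 and 19239 at P60), while 376 to 1165 genes had an unadjusted p under 0.05 in each. The 95% interval of that largest difference for G3bp1 ran from -0.45 to 0.05, with only 2 KO libraries in the P60 hippocampus. No regional difference in its KO effect was detected, and an interval this wide does not show that there is none.

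Levels did differ between regions, in fits that weighted KO and WT equally; the means printed are over all libraries of a region. All 4 protein-coding members had their lowest mean in the frontal cortex at both ages. G3bp1 was higher in the amygdala than in the frontal cortex at both ages, at 43.8 ± 2.52 and 39.1 ± 4.70 at P30 (log2 difference 0.17 ± 0.05 SE, adjusted p = 0.00693, limma-trend) and at 47.6 ± 7.25 and 37.4 ± 4.90 at P60 (0.34 ± 0.05, adjusted p = 9.11e-05). Its hippocampal level, 41.8 ± 3.37 at P30 and 44.5 ± 2.98 at P60, was above that of the frontal cortex at P60 (0.21 ± 0.06, adjusted p = 0.00882, limma-trend) and did not pass at P30 (0.10 ± 0.05, adjusted p = 0.0978), where it passed without KO frontal cortex library 4 (adjusted p = 0.0407, limma-trend) and without WT frontal cortex library 3 (adjusted p = 0.0463). Amygdala and hippocampus did not differ past the threshold at either age for G3bp1 (adjusted p = 0.252 and 0.126, limma-trend). The shares of genes called between regions were 43.3% for hippocampus against frontal cortex, 37.3% for amygdala against frontal cortex and 44.1% for amygdala against hippocampus at P30, and 32.8%, 31.4% and 29.0% at P60, so a regional difference was common.

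G3bp2 was higher in the amygdala than in the frontal cortex by 0.25 at P30 and 0.28 at P60 (adjusted p = 0.0016 and 0.00159, limma-trend), and in the hippocampus than in the frontal cortex by 0.16 and 0.18 (adjusted p = 0.0262 and 0.049). The hippocampal call for G3bp2 rested on single libraries: leaving out each library in turn, the adjusted p ran from 0.015 to 0.0619 at P30 and from 0.0241 to 0.136 at P60, and it was lost without 4 of 16 libraries at P30 and 10 of 12 at P60 (limma-trend). Caprin1 was higher in the hippocampus than in the frontal cortex by 0.18 and 0.21 (adjusted p = 0.000302 and 0.00295, limma-trend) and in the amygdala than in the frontal cortex by 0.16 and 0.18 (adjusted p = 0.00176 and 0.0053). Usp10 was higher in the amygdala than in the frontal cortex by 0.23 at both ages (adjusted p = 0.0106 and 0.00801, limma-trend), and the hippocampus did not differ from the frontal cortex past the threshold (adjusted p = 0.426 and 0.0729). The hippocampal difference of Usp10 at P60 passed without KO frontal cortex library 1, without WT frontal cortex library 2 and without KO hippocampus library 1 (adjusted p = 0.0372, 0.0427 and 0.0403 in turn, limma-trend). No amygdala to hippocampus difference passed for any member with all libraries. At P30 that of Usp10, 0.16, passed in 5 of the 16 fits that left out a library, those without KO amygdala libraries 1 and 4, WT amygdala library 3, KO hippocampus library 4 and WT hippocampus library 1 (adjusted p from 0.0225 to 0.0451, limma-trend). That of G3bp2, 0.08, passed without WT amygdala library 3 (0.13, adjusted p = 0.04, limma-trend). Gm5913 passed in no region comparison, the smallest adjusted p being 0.343 (limma-trend).

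For G3bp1, Caprin1 and Usp10 the differences between E14 and P30 were larger than those between genotypes or regions. From P30 to P60 their log2 differences in WT frontal cortex were -0.01, -0.055 and -0.12 in turn, smaller than their largest regional differences. Reads of the 3 tables were scaled together for these age comparisons. Age, table and dissection (whole cortex at E14, frontal cortex later) cannot be told apart. In WT cortex G3bp1 was at 177.3 ± 13.4 at E14, 44.9 ± 2.94 at P30 and 44.4 ± 0.97 at P60 (SD, n = 4, 4 and 3). Caprin1 was at 787.7 ± 31.9, 257.0 ± 9.26 and 247.4 ± 12.5 at these ages, and Usp10 at 104.4 ± 4.96, 51.9 ± 4.31 and 47.9 ± 5.02. G3bp2, the steadiest of the coding genes, was at 131.8 ± 5.69, 110.5 ± 10.3 and 127.2 ± 2.85. Gm5913 was at 1.41 ± 0.06, 1.16 ± 0.50 and 0.893 ± 0.42.

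At P30 against E14, G3bp1 fell by 1.96 on the log2 scale (adjusted p = 1.48e-27, limma-trend), Caprin1 by 1.61 (adjusted p = 1.79e-30), Usp10 by 1.00 (adjusted p = 2.08e-13) and G3bp2 by 0.26 (adjusted p = 0.00314, limma-trend). Gm5913 did not pass (-0.18 ± 0.20 SE, adjusted p = 0.408, limma-trend). Most genes changed between these groups, 73.9% of those tested, so passing was not particular to the granule genes. Scaling by total reads moved the median of all genes by -0.24 and left all 5 directions as they were. At P60 against P30 no member passed, the smallest adjusted p being 0.395 for G3bp2 (limma-trend), where 0.299% of genes were called. Per kilobase of annotated exons at E14, Caprin1 stood highest at 89.5 ± 3.19 RPM in WT, followed by G3bp1 at 29.1 ± 2.09, G3bp2 at 17.7 ± 0.67 and Usp10 at 12.7 ± 0.57, with Gm5913 at 1.17 ± 0.05. In the P30 frontal cortex of WT mice the order per kilobase had Caprin1 at 23.9 ± 0.79, G3bp2 at 12.2 ± 1.09, G3bp1 at 6.06 ± 0.41 and Usp10 at 5.18 ± 0.44. The ranges of 1 SD around neighbours in this order did not overlap, though those of G3bp1 and Usp10 nearly met. The length used joins the exons of all annotated transcripts of a gene, 7064 bases for G3bp1 and 9559 for Usp10. It can exceed the length of the transcripts present, and lengths of single transcripts were not used. Both orders, and the place of Usp10 in particular, therefore depend on the length chosen.

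**Figure D5:**
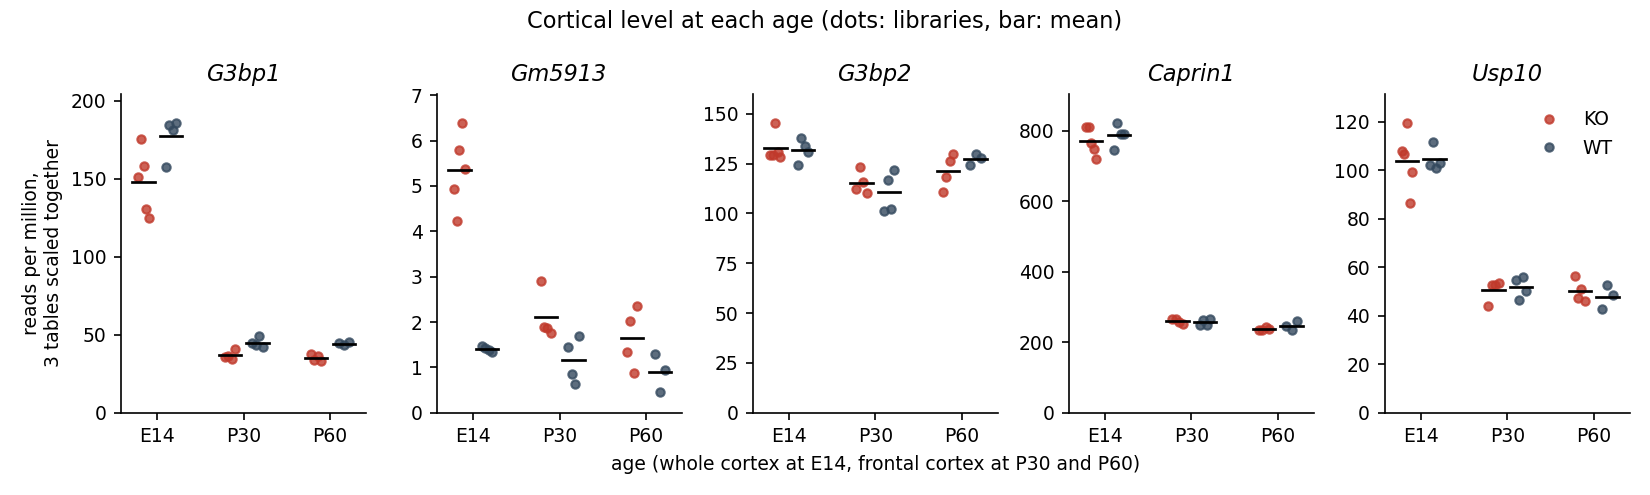
Level of each gene in cortex at E14, P30 and P60 in RPM after scaling the 3 tables together, 1 point per library, KO left of WT, bars at the means. WT G3bp1 stands at 177.3 on average at E14 and near 44 later, and WT G3bp2 stays between 110.5 and 131.8.

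Other genes of the pathway were described from a list of 56 stress granule components and a list of 20 genes of the eIF2 stress response. All 56 and 19 of the 20 were tested. No gene of either list was called in any of the 7 KO to WT settings (limma-trend; the smallest adjusted p was 0.233), where 0.0490% of genes were called at E14. At an unadjusted p under 0.05, the stress granule list had 11 genes in the P30 amygdala (19.6% of the list, against 9.82% of all genes), 4 in the P30 hippocampus (7.14%, against 9.55%), 3 in the P60 amygdala (5.36%, against 4.07%) and none in the other 4 settings. Median log2 differences of the list lay between -0.02 and 0.04, and those of all genes between -0.00 and 0.01. The eIF2 list had 1 gene at an unadjusted p under 0.05 in the P30 amygdala and 1 in the P60 amygdala (5.26% of the list in both) and none in the other 5 settings. Its median log2 difference was lowest in the P30 hippocampus, at -0.06 with 3 genes above 0 and 16 below, and highest in the P60 frontal cortex, at 0.07 with 13 above and 6 below.

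The stress granule list genes with the smallest p in the P30 amygdala were Usp9x, Elavl1 and Larp4b. Usp9x, an X-linked deubiquitinase, was at 520.5 ± 21.5 in KO and 448.6 ± 33.9 in WT. Elavl1, which binds AU-rich RNA, was at 108.1 ± 3.73 in KO and 94.3 ± 2.08 in WT. Larp4b was at 122.4 ± 3.496 in KO and 108.2 ± 3.97 in WT. In the P30 hippocampus Zfp36l1, which promotes decay of AU-rich messenger RNA, was at 20.8 ± 0.79 in KO and 29.6 ± 6.04 in WT (log2 difference -0.47 ± 0.12 SE, adjusted p = 0.233, limma-trend). WT library 3, which stood apart there, is included in these values. Summed choroid plexus markers there were 62.75 to 1181 in KO and 41.59 to 5434 in WT. Oligodendrocyte markers were 4461 to 7659 in KO and 4964 to 16890 in WT, and the part of these sums was not tested. In the eIF2 list, Asns, asparagine synthetase, was at 68.6 ± 5.46 in KO and 55.4 ± 7.33 in WT in the P30 amygdala (0.31 ± 0.10, adjusted p = 0.294, limma-trend). Eif2s3x, the X-linked gamma subunit of eIF2, was at 103.0 ± 21.9 in KO and 75.7 ± 17.3 in WT there, and the sexes were unbalanced as given above. In the P60 amygdala Tial1, a granule nucleator, was at 86.7 ± 4.29 in KO and 98.0 ± 5.98 in WT, and Eif2ak4, an eIF2alpha kinase that senses amino acid shortage, at 62.0 ± 1.48 in KO and 54.0 ± 7.30 in WT, with adjusted p of 0.999 for both (limma-trend).

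Within 1 Mb of G3bp1 on chromosome 11, 17 other genes were tested after birth and 15 at E14. Lyrm7, a mitochondrial assembly factor, was called in all 7 KO to WT settings, Cdc42se2 and Gm2a in 2 each, and Hint1 and Tnip1 in 1 each. Over all genes tested, 0.0158% to 0.0490% were called in these settings. The median log2 difference of these neighbours lay between -0.31 and -0.02, and that of all genes between -0.004 and 0.01. Over the 24 P30 libraries, with region means removed, the genes most like G3bp1 were Pttg1 (Pearson r = 0.79), Lnx1 (0.72), Prkab1 (0.69), Mgat1 (0.69) and Slc25a18 (0.68). Pttg1, the securin that restrains separase, lies on chromosome 11 from 43420250 to 43426251, beside Mir146, and Mgat1 lies on the same chromosome from 49244191 to 49263030. Those most like Gm5913 were Kbtbd7 (0.66), Odc1 (0.65), Crlf3 (0.65), Arxes1 (0.65) and Alg11 (0.63). G3bp1 and Gm5913 themselves had r = -0.71. These correlations describe libraries that share genotype, scaling and possibly animals, and each gene was picked as the highest of all genes tested.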

How the data were processed

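The authors deposited 3 tables of normalised values per gene, called RPM here, 1 for each age; per the submitters' processing notes, the build was mm9 and the tools named are DESeq, edgeR and limma, whose roles are not stated. Column totals ran from 945861 to 1039135, and every value was a whole multiple of a per-library step, within 0.1 read, which gave back whole reads. Neither aligner nor counter is given in the sources used here. Of 48526 gene IDs, 48144 were found in GENCODE M21 (GRCm38), from which symbols and positions come.

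Tests used limma-trend with robust variance (limma 3.58.1, R 4.3.3) on log2(value + 1), so changes of low genes such as Gm5913 are understated, over all genes that had at least 15 reads in a table and, in 4 libraries at E14 and P30 or 2 at P60, the value of 10 reads in a library of median depth. All libraries of an age shared a fit, p-values were adjusted by Benjamini-Hochberg over all genes tested, and the threshold was 0.05. Age comparisons scaled recovered reads together by trimmed mean of M-values. Shares and sums used exact permutation tests. The scripts were tested on simulated data. Sequences were aligned with Biopython 1.88. The genes named from the lists are the 3 with the smallest p in a setting, of which some are given, and the 5 genes most correlated with each of G3bp1 and Gm5913. The members and lists were chosen with earlier results of these data known. Replicates are separate samples in the labels, and animals of a genotype had different mothers, per the series' design text. Same-numbered KO and WT libraries correlated between -0.40 and 0.63 in their deviations from the group means. The main tests did not pair them. For G3bp1 in the P60 amygdala, where all 3 pairs passed 0.1, a fit with number as a block is given beside the main result. The P60 hippocampus had only 2 pairs, at 0.63 and 0.50. All same-numbered pairs at P60 were of the same sex, and the part of sex in these correlations was not tested. Sample labels are used where the design text differs (it names sensory cortex for the region labelled frontal cortex and P6 for P60). Same-numbered libraries of different regions may share an animal. Count models planned as alternatives were not run; voom on the recovered reads was. The labels mention no molecular identifiers, so intervals cover counting error only.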

Additional observations from a re-analysis of the deposited data

Results flagged for a closer look

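In 60 groups of 4 or 5 libraries (10 groups of libraries, each tested for the 5 genes and for the share of Gm5913 in the pair), 6 had a library far from the others by Dixon's criterion, and chance alone gives about 1 in 20 groups. All 6 were KO groups. More KO than WT groups were tested, since each P60 WT group had only 3 libraries. For G3bp1 they were KO library 1 of the P30 hippocampus, at 42.9 against 37.84 to 38.4 in the other 3, and KO library 1 of the P60 amygdala, at 47.51 against 39.76 to 40.99. For Gm5913 it was KO library 1 of the P30 frontal cortex, at 2.81 against 1.68 to 1.81. In the same tissue the Usp10 value of KO library 1, 42.62, lay below the 50.32 to 51.19 of the others. G3bp2 stood high in KO library 3 at E14, at 168.9 against 150.1 to 153.5, and Caprin1 stood low in KO library 3 of the P30 hippocampus, at 272.9 against 284.1 to 286.1.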

How the results depend on the processing

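No member passed the adjusted threshold in a single-region KO to WT comparison after birth, under any alternative run. The cause of each change below was not tested. Genes called at E14 were 9, and 5 with a pseudocount of 0.1, 5 with voom and 3 with a replicate block; without a filter 11 in the P30 amygdala (main 5) and 5 in the P30 frontal cortex (main 3); with the 2 groups alone 2 in the P30 hippocampus (main 6) and 0 in the P60 hippocampus (main 4). With a replicate block the counts were 12 in the P30 hippocampus and 7 in the P60 amygdala, and 10 each in the fits over regions at P30 and P60 (main 5 and 6), where only G3bp1 at P60 changed its call among members. Sign reversals of log2 differences: with sex as a covariate Caprin1 0.006828 and Usp10 0.02882 at E14 and G3bp2 -0.0165 in the P30 hippocampus; without KO replicates 4 and 5 at E14, chosen after seeing the data, Caprin1 0.02359 and Usp10 0.1017; with the block Caprin1 0.003497 and Usp10 0.01272 at E14 and Usp10 0.003999 in the P60 hippocampus; G3bp1 0.0004664 at P60 against P30 with total-read scaling.

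Leaving out each library in turn gave 5 to 9 calls at E14, 5 to 265 in the P30 hippocampus (265 without WT replicate 1, 12 without WT replicate 3 and 11 without KO replicate 4), 3 to 5 in the P60 frontal cortex and in the P60 means over regions, 23 to 44 for WT frontal cortex at P60 against P30 (64 with all libraries) and 3586 to 5942 for amygdala against hippocampus at P60. KO to WT log2 differences near 0 changed sign in some of these fits. The range was -0.04355 to 0.003497 at E14, -0.004474 to 0.03427 in the P30 hippocampus and -0.01868 to 0.08737 in the P60 hippocampus for Caprin1. For G3bp2 it was -0.01052 to 0.03941 at E14, -0.03407 to 0.05526 in the P30 hippocampus, -0.07671 to 0.04408 in the P60 amygdala and -0.08302 to 0.005503 over P60 regions. For Usp10 it was -0.05113 to 0.06135 at E14, -0.05309 to 0.06296, -0.07441 to 0.03631 and -0.07204 to 0.01946 in the P30 amygdala, frontal cortex and regional means, and -0.00586 to 0.059, -0.01198 to 0.1339, -0.1164 to 0.09635 and -0.004764 to 0.08323 in the P60 amygdala, frontal cortex, hippocampus and regional means. For Gm5913 it was -0.0276 to 0.719 in the P60 hippocampus, and between regions -0.1002 to 0.03493 (amygdala against frontal cortex, P30), -0.01305 to 0.1488 (the same, P60), -0.272 to 0.1014 (amygdala against hippocampus, P60) and -0.02692 to 0.3464 (hippocampus against frontal cortex, P60). G3bp1 at P60 against P30 ran from -0.03985 to 0.02801. Without a filter, G3bp2 in the P60 hippocampus against frontal cortex had an adjusted p of 0.082. The Gm5913 difference at E14 was 1.86 with a pseudocount of 0.1 and 1.88 with voom. Planned count models (edgeR, DESeq2) were not run. Precision for Gm5913 is limited by 3 to 23 reads a library after birth.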
